A study of Homo sapiens with 9 samples.

Results

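Estrogen-induced genes were examined after a microRNA had been put into ZR-75-1, a human breast cancer cell line that carries the estrogen receptor and depends on it. The set holds 33 genes that estradiol is known to raise in breast cancer cells, chosen by name with earlier results of these data known. Of these, 27 have a named probeset on the array, among 14884 named genes in all. The other 6, AREG, CELSR2, SGK3, RAB31, RERG and FKBP4, were not analysed here.

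All 9 samples were total RNA of the same line in serum-containing medium, taken 48 h after transfection with the lipid reagent Lipofectamine RNAiMAX. The medium was changed at 24 h in all 9. In the mimic group, 3 samples received 50 nM of a synthetic copy of the mature microRNA miR-150-5p, called the mimic below. In the negative control group, 3 samples received 50 nM of a non-specific RNA, and in the mock group 3 samples received the lipid without RNA. The labels mention neither added estradiol nor its withdrawal. The transfections were made in triplicate, with no statement that they were independent experiments, so p-values reflect only how far these samples scatter, and that scatter may be technical.

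Estradiol acts in these cells mainly through estrogen receptor alpha, a nuclear receptor encoded by ESR1. The bound receptor attaches to DNA at estrogen response elements, a palindrome of 2 half-sites, or through other DNA-bound factors, and recruits coactivators to nearby and distant genes. Its induced genes include cofactors that feed back on the receptor, such as GREB1 and NRIP1, growth factors, membrane receptors, enzymes and scaffold proteins. Several of them serve as markers of hormone-dependent breast tumours.

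The arrays carried the markers of the labelled cell type. All 9 measured luminal markers, ESR1, GATA3, FOXA1 and KRT8 among them, lay above the median log2 intensity of all named genes, 5.44, and the 4 measured basal markers lay below it. The measured markers of fibroblasts (4 of 4), endothelium (5 of 5) and leukocytes (3 of 4) also lay below it. The mean log2 intensity of the 5 endothelial markers was higher in the mimic arrays, from 3.66 to 3.81 over the arrays, against 3.51 to 3.60 in negative control arrays and 3.45 to 3.56 in mock arrays. PECAM1 differed most (0.53 against both controls), and the other 4 overlapped the controls. None of them passed in limma's test against both controls (lowest adjusted p = 0.142). An unadjusted p under 0.05 was found for 1 of the 5, as for 2015 of all 14884 genes. None of the 5 lay above the median of all genes, and their part in the results was not tested. A lower share of cells with a transcript and less transcript per cell cannot be told apart in such bulk RNA.

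Against the 6 control arrays together, 5 estrogen-induced genes rose in the mimic arrays, 1 fell and 21 did not pass. The rises were GREB1L (0.73 ± 0.11 on the log2 scale, SE, 1.66-fold), CXCL12 (0.73 ± 0.13, 1.66-fold), NRIP1 (0.44 ± 0.08, 1.36-fold), GREB1 (0.37 ± 0.06, 1.29-fold) and SIAH2 (0.37 ± 0.06, 1.29-fold). The fall was CA12, a carbonic anhydrase of the cell surface, which fell by 0.46 ± 0.08 or 1.37-fold. The contrast set the mean of 3 mimic arrays against the average of the means of the 2 control groups, in limma's fit of all named genes, with p-values adjusted by the Benjamini-Hochberg method over all 14884 genes and a threshold of 0.05. Over all genes 0.504% rose and 0.591% fell in the same test, 1.1% in either direction. These calls rested on the full set of arrays: without mimic replicate 1, 2 or 3 the rises numbered 0, 0 and 1, without negative control replicate 1, 2 or 3 they numbered 0 each time, and without mock replicate 1, 2 or 3 they numbered 1, 0 and 3, while CA12 no longer passed in any of the 9. Of the 6 genes, 0 passed when every probeset, named or not, was tested.

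Of the 27 genes, 10 had all 3 mimic arrays above all 6 control arrays and 3 had them all below, 13 in total, where 4.22% of all genes lay wholly above, 3.46% wholly below and 7.68% either way. The 10 were GREB1, GREB1L, NRIP1, CXCL12, RET, TPBG, ADCY1, SIAH2, ELOVL2 and PDZK1, and the 3 were IGFBP4, CA12 and MAPT. The margin was narrowest for TPBG and MAPT. The median log2 change of the 27 genes was 0.16 against both controls, beside 0.01 over all genes, and 19 of the 27 changes were positive (53.9% over all genes). The genes were chosen with earlier results of these data known, so these counts describe the set and are not a test of it. The set is also bright: just 2 of its 27 genes had a mean log2 intensity under 5.44, the median named gene. The shares over all genes, here and in the other comparisons, were not matched for intensity. How much of the gap goes with brightness was not tested.

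**Figure D1:**
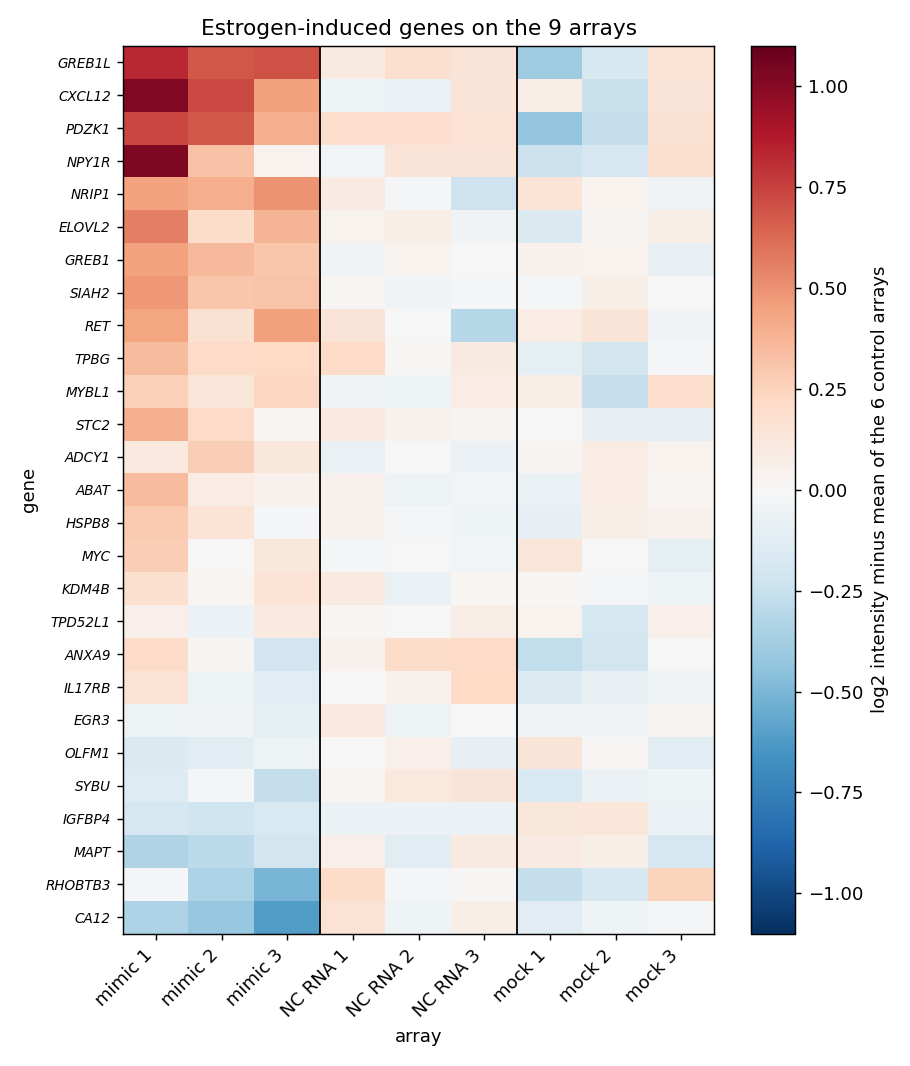
Log2 intensity of 27 estrogen-induced genes (rows, ordered by their change against both controls) on the 9 arrays (columns, mimic, negative control RNA and mock), as the difference from the mean of the 6 control arrays; red is higher and blue lower. The rows from GREB1L to RET are red in all 3 mimic columns except NPY1R, which is near 0 in mimic replicate 3, the bottom rows are MAPT, RHOBTB3 and CA12, and PDZK1 and GREB1L are blue in mock replicates 1 and 2.

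Each control taken alone gave fewer calls. Against the negative control RNA, CA12 fell (-0.52 ± 0.09, SE, limma adjusted p = 0.0427) and none of the 27 genes rose, where 0.349% of all genes fell and 0.202% rose, 0.551% in all. Of the 27, 13 had an unadjusted p under 0.05, as had 1871 of all 14884 genes, and SIAH2, GREB1 and NRIP1 came close to the threshold, with adjusted p = 0.0520, 0.0541 and 0.0541. The fall of CA12 was lost in each of the 9 fits without 1 array, where its log2 change stayed between -0.58 and -0.44. Against mock, GREB1L rose (0.87 ± 0.12, 1.83-fold, adjusted p = 0.0331) and none fell, where 0.168% of all genes rose and 0.134% fell, and 14 of the 27 had an unadjusted p under 0.05, as had 1594 of all 14884 genes. GREB1L passed against mock only in the fit without mock replicate 3 among the 9 fits without 1 array, and its change lay between 0.75 and 1.02 in them. The arrays did not overlap for 16 of the 27 genes against the negative control (12 higher and 4 lower, where 8.42% and 8.01% of all genes did so) and for 15 against mock (12 higher and 3 lower, where 7.21% and 5.44% did so). The median change of the 27 genes was 0.15 against the negative control and 0.15 against mock, beside 0.01 over all genes in either comparison. These comparisons share the mimic arrays with each other and with the comparison against both controls, so they are not independent.

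**Figure D2:**
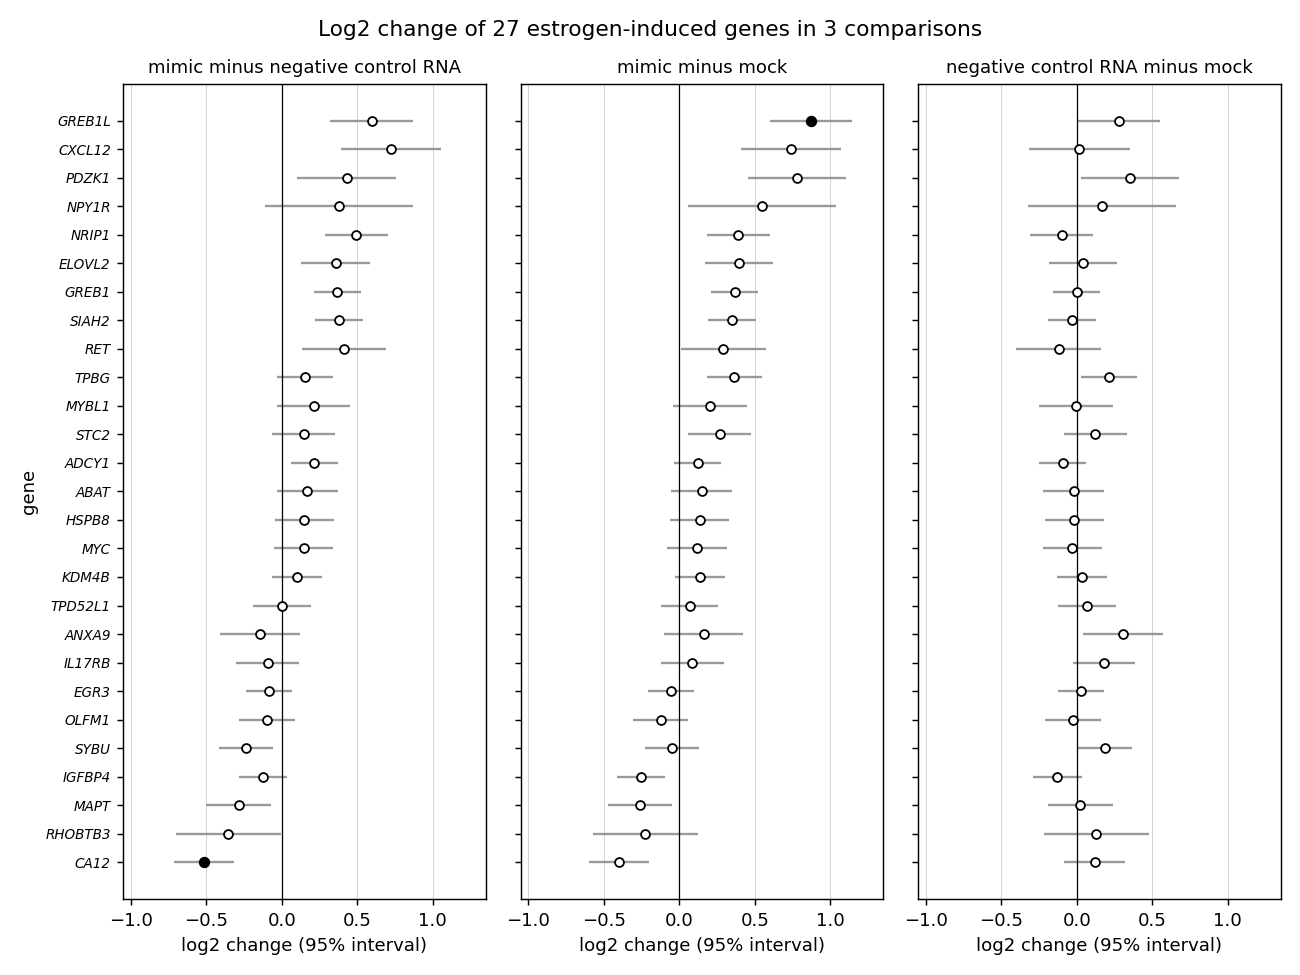
Log2 change of each of the 27 estrogen-induced genes (rows) with its 95% interval (lines) in mimic minus negative control RNA, mimic minus mock and negative control RNA minus mock; filled points passed the adjusted threshold of 0.05 and open points did not. GREB1L and CXCL12 lie to the right in both mimic panels, CA12 lies farthest left in both, and the third panel has no filled point.

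Among the 7 genes of transcription and chromatin, all measured, 3 rose against both controls. GREB1, a cofactor of the estrogen receptor, had a log2 intensity of 11.26, 11.17 and 11.13 in mimic arrays, 10.78, 10.86 and 10.82 in negative control arrays and 10.86, 10.86 and 10.74 in mock arrays. The mimic arrays all lay above the 6 control arrays, and the 2 control groups had the same mean, 10.82. Its change against both controls was 0.37 ± 0.06 (adjusted p = 0.0271), with values of 0.37 ± 0.07 against each control alone that did not pass.

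GREB1L, its paralogue, had 8.65, 8.50 and 8.52 in mimic arrays, 7.92, 8.00 and 7.96 in negative control arrays and 7.43, 7.65 and 7.97 in mock arrays. The mimic arrays lay above all controls, but mock replicates 1 and 2 lay below every other array. The change was 0.87 ± 0.12 against mock and 0.60 ± 0.12 against the negative control (adjusted p = 0.0671). Against both controls the adjusted p was 0.0180. NRIP1, a corepressor that binds the liganded receptor, had 8.88, 8.84 and 8.93 in mimic arrays, 8.53, 8.43 and 8.21 in negative control arrays and 8.59, 8.48 and 8.40 in mock arrays. No control array reached the lowest mimic array, and the adjusted p against both controls was 0.0374. A second, dim probeset of NRIP1 averaged 4.17 in mimic, 4.12 in negative control and 4.19 in mock arrays and differed by 0.01 ± 0.06 (limma over all probesets, adjusted p = 0.961). With the probesets of each gene averaged, the change of NRIP1 against both controls was 0.23 and no longer passed (limma adjusted p = 0.123), and against the negative control it was 0.27 (adjusted p = 0.133).

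The other 4 genes of this role did not pass. MYC, the growth-promoting transcription factor and an early target of estradiol, had 8.56, 8.29 and 8.42 in mimic arrays, within reach of mock replicate 1 at 8.42, with a change of 0.13 against both controls and a 95% interval from -0.04 to 0.30. MYBL1, a MYB-family factor, differed by 0.21 (-0.00 to 0.42) and KDM4B, a histone demethylase that works with the receptor, by 0.12 (-0.03 to 0.26). EGR3, an early-response zinc finger factor, was the only one with a negative value, -0.07 (-0.20 to 0.06). It had 5.67, 5.69 and 5.62 in mimic arrays, 5.83, 5.67 and 5.72 in negative control arrays and 5.69, 5.69 and 5.76 in mock arrays, and the groups overlapped.

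**Figure D3:**
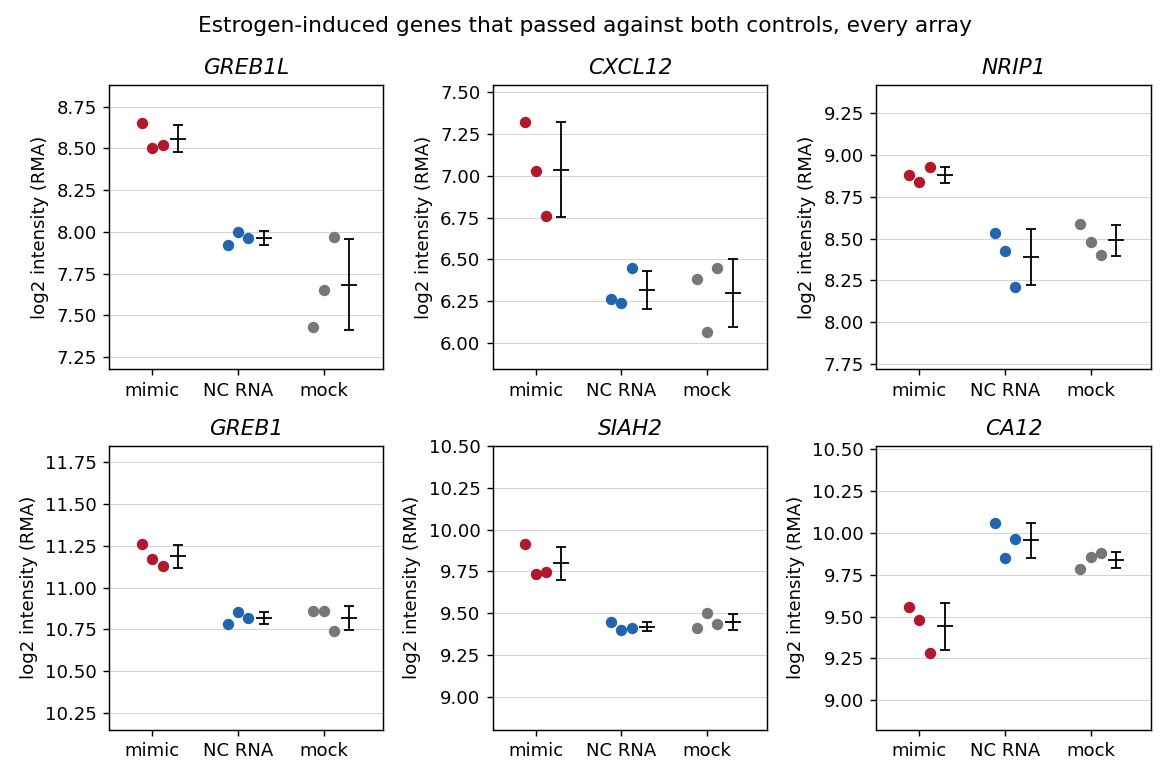
Log2 intensity of the 6 estrogen-induced genes that passed against both controls, on every array; dots are the arrays of the mimic (red), negative control RNA (blue) and mock (grey) groups, the bar beside them is the mean with its SD (n = 3 each), and every panel spans the same range on the y axis. In each panel the 3 mimic dots lie on 1 side of the 6 control dots, above them in 5 panels and below them for CA12.

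Promoter sequences are shown for the genes that passed against both controls, a choice set by the threshold. Genes that did not pass are not shown, among them PDZK1, with a change of 0.60 against both controls. RefSeq's table of promoters (GRCh38.p14) covers 24 of the 33 genes with 36 windows, each from 250 bases before to 50 bases after a transcript start, and holds 5 of the 6 genes that passed. Each window below is written 5′ to 3′ in the direction of the gene, with every half-site (GGTCA, or TGACC where it lies on the other strand) in capitals. The windows are chr18:21241982-21242281 on the plus strand for GREB1L, chr21:15064951-15065250 on the minus strand for NRIP1, chr10:44385048-44385347 on the minus strand for CXCL12, chr3:150763120-150763419 on the minus strand for SIAH2 and chr15:63381797-63382096 on the minus strand for CA12. NRIP1 has 3 start windows, and the one with a half-site is given.
GREB1L: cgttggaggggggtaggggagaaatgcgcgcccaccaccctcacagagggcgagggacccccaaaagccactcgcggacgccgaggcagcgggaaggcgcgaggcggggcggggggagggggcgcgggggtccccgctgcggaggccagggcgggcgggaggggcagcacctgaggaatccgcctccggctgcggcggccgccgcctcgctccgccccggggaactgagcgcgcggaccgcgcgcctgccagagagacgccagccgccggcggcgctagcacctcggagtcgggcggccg
NRIP1: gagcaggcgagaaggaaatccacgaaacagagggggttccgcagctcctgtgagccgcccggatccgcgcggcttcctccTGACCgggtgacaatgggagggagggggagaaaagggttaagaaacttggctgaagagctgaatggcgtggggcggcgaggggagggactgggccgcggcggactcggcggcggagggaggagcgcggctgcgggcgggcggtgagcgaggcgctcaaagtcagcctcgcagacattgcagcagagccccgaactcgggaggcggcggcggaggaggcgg
CXCL12: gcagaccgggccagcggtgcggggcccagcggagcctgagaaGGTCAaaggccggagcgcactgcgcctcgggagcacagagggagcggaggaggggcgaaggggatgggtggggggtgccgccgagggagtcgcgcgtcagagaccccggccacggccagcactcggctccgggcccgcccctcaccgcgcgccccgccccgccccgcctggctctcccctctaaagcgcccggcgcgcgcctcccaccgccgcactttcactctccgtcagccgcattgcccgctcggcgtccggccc
SIAH2: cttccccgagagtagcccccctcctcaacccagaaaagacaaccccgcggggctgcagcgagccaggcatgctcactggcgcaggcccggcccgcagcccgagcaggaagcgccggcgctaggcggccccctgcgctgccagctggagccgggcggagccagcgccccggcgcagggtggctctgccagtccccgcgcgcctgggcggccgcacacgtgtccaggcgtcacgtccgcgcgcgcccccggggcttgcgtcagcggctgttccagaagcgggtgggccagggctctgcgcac
CA12: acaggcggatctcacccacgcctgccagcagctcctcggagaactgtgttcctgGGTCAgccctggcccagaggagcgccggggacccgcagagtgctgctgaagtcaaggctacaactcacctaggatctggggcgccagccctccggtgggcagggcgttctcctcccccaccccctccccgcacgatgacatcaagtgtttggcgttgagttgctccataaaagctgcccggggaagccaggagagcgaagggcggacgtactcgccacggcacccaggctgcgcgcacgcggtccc

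The half-site lay at positions -170 to -166 from the start in NRIP1, on the other strand, at -208 to -204 in CXCL12 and at -196 to -192 in CA12. The windows of GREB1L and SIAH2, which rose, held no half-site, and neither did the other start windows of NRIP1. Across the set, 12 of the 36 windows (33.3%) held GGTCA on either strand, against 37.4% of all 35116 windows in the table. The full element GGTCANNNTGACC, 2 half-sites with 3 bases between them, was in 0 of the 36 windows and in 0.057% of all windows. GGGCGG, the GC box bound by SP1-family factors, was in 24 of the 36 windows (66.7%), against 45% of all windows, and in all 5 windows printed. The 5 printed windows were 66.7% (CA12) to 78.7% (GREB1L) G or C. These shares were not matched for base composition, and its part in them was not tested. TATAAA was in 3 of the 36 (8.33%, against 11.5%). A gene can have several windows, a match is a description of letters and not of a bound site, and enhancers far from the start lie outside these windows.

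Of the 5 secreted factors 4 were measured and 1 rose. CXCL12, the chemokine that binds CXCR4, had 7.32, 7.03 and 6.76 in mimic arrays, 6.26, 6.24 and 6.45 in negative control arrays and 6.38, 6.06 and 6.45 in mock arrays. All mimic arrays lay above all controls, but they spread widely (SD 0.28, against 0.11 in negative control and 0.21 in mock arrays), and the adjusted p against both controls was 0.0350. IGFBP4, which binds insulin-like growth factors, had 8.87, 8.83 and 8.89 in mimic arrays, 8.99 in all 3 negative control arrays and 9.17, 9.19 and 8.99 in mock arrays. The deposited value was identical on 4 arrays, the 3 negative control arrays and mock replicate 3, so the SD of the negative control group is 0. IGFBP4 lay below every control array, with a change of -0.19 ± 0.06 that did not pass (adjusted p = 0.232).

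STC2, a stanniocalcin hormone, had 9.73, 9.55 and 9.36 in mimic arrays, 9.45, 9.39 and 9.38 in negative control arrays and 9.34, 9.25 and 9.26 in mock arrays, so mimic replicate 3 lay below the negative control arrays and above the mock arrays. Its change against both controls was 0.21 (95% interval 0.03 to 0.39, adjusted p = 0.308). OLFM1, a secreted olfactomedin, differed by -0.11 (-0.27 to 0.05).

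None of the 4 measured receptors and surface proteins passed in limma's test, while 3 had an unadjusted p under 0.05 against both controls, as had 2015 of all 14884 genes. NPY1R, a neuropeptide Y receptor, had 9.32, 8.62 and 8.33 in mimic arrays, 8.27, 8.43 and 8.43 in negative control arrays and 8.05, 8.11 and 8.47 in mock arrays. Mimic replicate 1 stood far above the rest and mimic replicate 3 lay among the controls: the change of 0.46 ± 0.19 (adjusted p = 0.330) was 0.18 without mimic replicate 1. RET, the receptor tyrosine kinase for glial-derived ligands, had 5.44, 5.17 and 5.45 in mimic arrays, 5.14, 4.99 and 4.68 in negative control arrays and 5.08, 5.14 and 4.96 in mock arrays. Its mimic arrays lay above all controls at a dim probeset whose mean is below the median of all genes, and its change of 0.35 ± 0.11 did not pass (adjusted p = 0.191). TPBG, an oncofetal surface glycoprotein, differed by 0.26 ± 0.07 (adjusted p = 0.141), more against mock (0.37) than against the negative control (0.15). IL17RB, a subunit of the receptor for interleukin-25, had 8.21, 7.99 and 7.93 in mimic arrays, 8.05, 8.10 and 8.27 in negative control arrays and 7.90, 7.97 and 8.01 in mock arrays. The groups overlapped, and the difference against both controls was -0.00 (95% interval -0.18 to 0.18).

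Of 6 signalling genes 3 were measured and 1 rose. SIAH2, a ubiquitin ligase, had 9.91, 9.74 and 9.75 in mimic arrays, 9.45, 9.40 and 9.41 in negative control arrays and 9.41, 9.50 and 9.44 in mock arrays. The control arrays spanned 0.10, the narrowest range among the 27 genes, and the adjusted p against both controls was 0.0299. ADCY1, an adenylyl cyclase, differed by 0.17 ± 0.06 (adjusted p = 0.265). RHOBTB3 had 7.78, 7.46 and 7.29 in mimic arrays, 8.00, 7.77 and 7.81 in negative control arrays and 7.54, 7.62 and 8.04 in mock arrays, so the groups overlapped. Its value of -0.29 ± 0.14 did not pass (adjusted p = 0.394).

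Of the 3 metabolic enzymes, all measured, CA12 fell. CA12 had 9.56, 9.48 and 9.28 in mimic arrays, 10.06, 9.85 and 9.96 in negative control arrays and 9.78, 9.85 and 9.88 in mock arrays. All mimic arrays lay below all controls, and the adjusted p against both controls was 0.0299. ELOVL2, an elongase of polyunsaturated fatty acids, had 8.31, 7.96 and 8.13 in mimic arrays, 7.79, 7.82 and 7.71 in negative control arrays and 7.60, 7.78 and 7.82 in mock arrays. It lay above every control, with a change of 0.38 ± 0.09 that did not pass (adjusted p = 0.0895). ABAT, which breaks down the transmitter GABA, differed by 0.16 (-0.02 to 0.33).

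None of the 6 measured chaperones, scaffolds and cytoskeletal proteins passed in limma's test. Against both controls 2 of them, PDZK1 and MAPT, had an unadjusted p under 0.05, as had 2015 of all 14884 genes. PDZK1, a scaffold of membrane transporters, had 7.59, 7.53 and 7.25 in mimic arrays, 7.04, 7.04 and 7.01 in negative control arrays and 6.42, 6.59 and 7.02 in mock arrays. It lay above all controls with a change of 0.60 ± 0.13 (adjusted p = 0.0609), and it passed without mock replicate 3 (0.71). MAPT, the microtubule protein tau, had 7.62, 7.66 and 7.75 in mimic arrays, 8.01, 7.83 and 8.05 in negative control arrays and 8.04, 8.01 and 7.76 in mock arrays. It lay below all controls, mock replicate 3 by the least, with a change of -0.27 ± 0.08 (adjusted p = 0.180).

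HSPB8, a small heat shock protein, differed by 0.14 (-0.03 to 0.31), SYBU, a kinesin adaptor at a dim probeset, by -0.14 (-0.30 to 0.01), and TPD52L1, a vesicle-trafficking protein, by 0.03 (-0.13 to 0.20). ANXA9, an annexin, differed by 0.01 (-0.22 to 0.24), with values of opposite sign against the negative control (-0.14 ± 0.12) and mock (0.16 ± 0.12).

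Negative control RNA against mock showed how far the genes differ when an RNA without the microRNA's sequence is delivered. None of the 27 genes passed in limma's test, as none of all 14884 genes did (0% in either direction), while 5 of the 27 and 622 of all genes had an unadjusted p under 0.05. Non-overlapping arrays were found for 6 of the 27, 5 higher and 1 lower in the negative control, where the shares over all genes were 4.77% and 3.33%, 8.1% together. The median change was 0.03 for the 27 genes and 0.01 for all genes. The largest differences were PDZK1 (0.35 ± 0.15), ANXA9 (0.31 ± 0.12) and GREB1L (0.28 ± 0.12), all with an adjusted p of 0.976.

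Within the mock group, replicate 3 stood apart from replicates 1 and 2. It had GREB1L, NPY1R, RHOBTB3 and PDZK1 higher than the mean of mock replicates 1 and 2 by 0.43, 0.39, 0.46 and 0.51. GREB1L, NPY1R and PDZK1 were at or near the negative control level: PDZK1 had 7.02 in mock replicate 3, against 7.03 ± 0.02 (SD) in the negative control. RHOBTB3, at 8.04 in mock replicate 3, lay above its negative control mean of 7.86. Over all genes, mock replicate 3 and mimic replicate 2 correlated no better with their own group (0.9935 and 0.9940) than with the other arrays (0.9937 and 0.9941), as a description of these arrays.

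The 3 mimic arrays also differed among themselves. The median difference of the 27 genes from the mean of the 6 control arrays was 0.27, 0.13 and 0.11 in mimic replicates 1, 2 and 3, from 0.00 to 0.04 in the negative control arrays and from -0.04 to 0.00 in the mock arrays. Of the 27 genes, 18 had their highest mimic value in replicate 1, 3 in replicate 2 and 6 in replicate 3, where the shares over all genes were 31.7%, 25.5% and 42.8%. Without mimic replicate 1 the median change of the 27 genes was 0.09 against both controls, 0.08 against the negative control and 0.11 against mock.

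The receptor and its partners were taken from a list of 27 genes, of which 20 were measured: 2 rose against both controls, 0 fell and 18 did not pass, where 0.504% of all genes rose and 0.591% fell. The median change of the list was 0.06, beside 0.01 over all genes. ESR1 had 9.04, 9.02 and 8.98 in mimic arrays, 8.50, 8.52 and 8.64 in negative control arrays and 8.52, 8.55 and 8.63 in mock arrays, a change of 0.45 ± 0.06 (1.37-fold, adjusted p = 0.0128). PGR, the progesterone receptor and itself induced by estradiol, had 9.84, 9.91 and 9.88 in mimic arrays, 9.24, 9.45 and 9.20 in negative control arrays and 9.29, 9.16 and 9.26 in mock arrays, a change of 0.61 ± 0.07 (1.53-fold, adjusted p = 0.00704). Both stood clear of all control arrays, and PGR passed in each of the 16 alternatives run for this comparison while ESR1 passed in 13.

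A further list of 95 genes reported as estrogen-induced, PGR among them, had 62 measured members: 4 rose against both controls, 0 fell and 58 did not pass (0.504% and 0.591% of all genes rose and fell), with a median change of 0.05. Besides PGR these were BCL2, an inhibitor of apoptosis (0.39 ± 0.06), LRIG1, a surface regulator of growth factor receptors (0.38 ± 0.06), and MPPED2, a phosphoesterase (0.45 ± 0.08, with 1 identical value on the 3 mock arrays). Of the 62, 16 showed no overlap between mimic and control arrays, 12 higher and 4 lower, where the shares over all genes were 4.22% and 3.46%. BCL2 passed in 10 of 16 alternatives, LRIG1 in 7 and MPPED2 in 5.

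TFF1, the trefoil peptide often used as the reporter of estrogen action, did not pass. It had 11.02, 11.21 and 11.41 in mimic arrays, 10.66, 10.95 and 10.88 in negative control arrays and 11.21, 11.32 and 10.87 in mock arrays. The mimic arrays lay above the negative control arrays but overlapped the mock arrays, with changes of 0.38 ± 0.14 against the negative control (adjusted p = 0.303), 0.08 ± 0.14 against mock and 0.23 ± 0.12 against both.

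**Figure D4:**
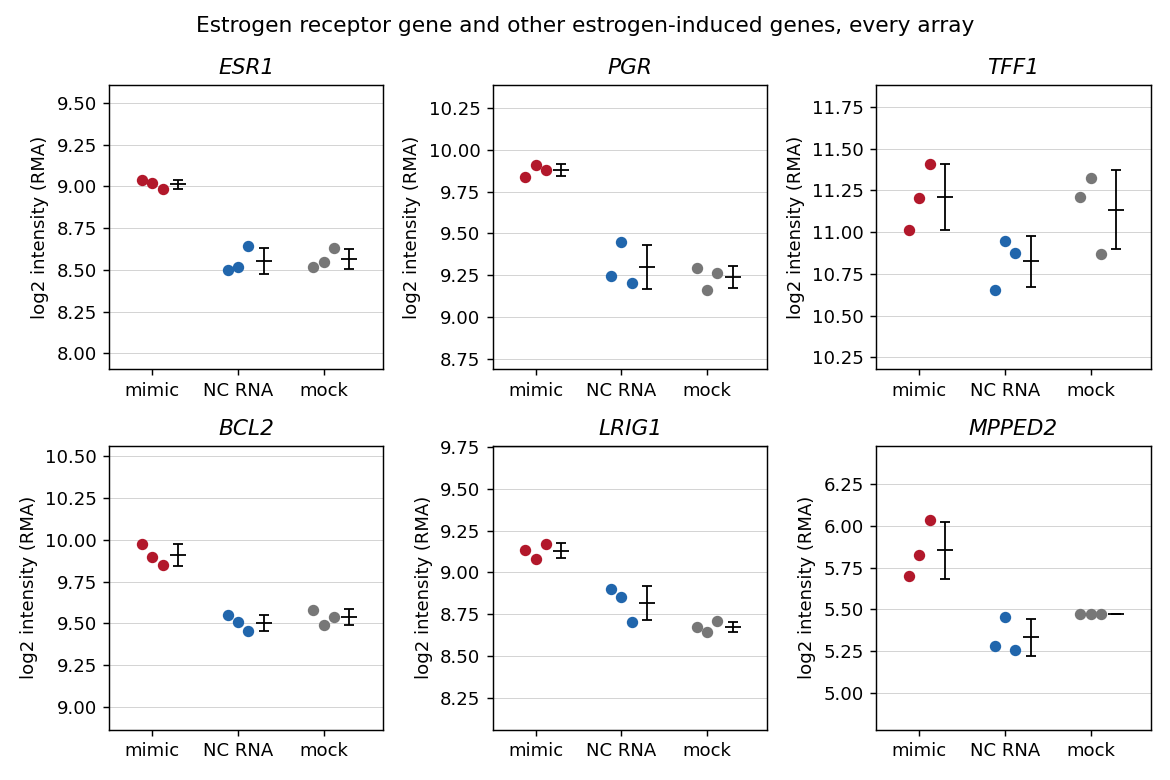
Log2 intensity of the receptor gene ESR1 and of the estrogen-induced genes PGR, TFF1, BCL2, LRIG1 and MPPED2 on every array. Dots are the arrays of the mimic (red), negative control RNA (blue) and mock (grey) groups. The bar beside them is the mean with its SD (n = 3 each), and every panel spans the same range on the y axis. The mimic dots lie above all control dots for ESR1, PGR, BCL2, LRIG1 and MPPED2, and overlap the mock dots for TFF1.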

How the data were processed

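Transcript levels of ZR-75-1 cells were read on 9 one-colour Affymetrix Human Gene 2.0 ST arrays, 3 in each of 3 groups. The deposited values are log2 intensities per probeset, made by the authors with RMA (background correction, normalization across arrays and probe summary) per the submitters' processing notes. For RMA's version and the genome build, the sources used here give nothing. Of 53617 probesets, 16098 carry 1 gene symbol, 0 several, and 37519 are unnamed here. All 16098 gene identifiers matched RefSeq. Genes with several probesets were represented by their brightest on average, which gave 14884 genes. The table holds no detection call, and precision is set by how many arrays there are. Array medians lay between 4.22 and 4.27.

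The values were fitted as deposited with limma 3.58.1 in R 4.3.3 (lmFit, then eBayes) on all 9 arrays with a mean for each group and 6 residual degrees of freedom. P-values are two-sided and adjusted over all 14884 genes (Benjamini-Hochberg, threshold 0.05). Intervals are 95% intervals of the moderated fit. Two-sided exact permutation tests of 3 mimic against 6 control arrays gave p = 0.0119, the smallest that 84 splits can give, for the 6 genes that passed against both controls and also for ADCY1, ELOVL2, PDZK1 and MAPT, which did not pass. That p says that no other split of the 9 arrays gave as large a difference in means. RET, TPBG and IGFBP4, whose mimic arrays also lay clear of all controls, had p = 0.0238, 0.0357 and 0.0595 in this permutation test. 3 arrays against 3 cannot give less than 0.1. The fit was tested on simulated data. Values on every array are given for genes that passed, for genes clear of all controls by a change of at least 0.3, for the highest and lowest change of each role, for genes with a second probeset and for GREB1 and GREB1L. From the other lists, genes that passed are named, with ESR1, PGR and TFF1. The members, lists and tests were chosen with earlier results of these data known. Alternatives covered the choice of probeset, the genes tested, normalization, the prior spread, the arrays fitted, a replicate block and each array left out.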

Additional observations from a re-analysis of the deposited data

How the results depend on the processing

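With 3 arrays a group and 6 residual degrees of freedom, the number of calls changed with the processing and with single arrays. GREB1, GREB1L, NRIP1, CXCL12, SIAH2 and CA12 kept their direction in every alternative run for the 3 mimic comparisons. Where a count of calls changed, the cause was not tested. The share of all genes called in these alternatives was not counted, so a change particular to the set cannot be told from a general one.

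Against both controls, where 5 genes rose and 1 fell, testing every probeset gave 0 and 0, and quantile normalization gave 3 rises (GREB1L, CXCL12 and SIAH2). Averaging the probesets of a gene gave 4 rises, with NRIP1 at 0.23 and no longer passing. Over the 16 alternatives run for this comparison, GREB1L passed in 8, CXCL12 in 6, GREB1, SIAH2 and CA12 in 5 each and NRIP1 in 3. PDZK1 and ELOVL2, which did not pass in the main fit, passed in 3 and 1 of the 16. Against the negative control, where 0 rose and 1 fell, 5 rose among genes above the median intensity and 5 with an intensity trend in the prior (GREB1, GREB1L, NRIP1, CXCL12 and SIAH2 in either), and 1 (NRIP1) with arrays centred on their median. The fall was lost, giving 0, with every probeset, with quantile normalization and in a fit of these groups alone. Against mock, where 1 rose, 5 rose among genes above the median intensity, 4 with an intensity trend, and 0 with every probeset or in a fit of these groups alone.

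Same-numbered arrays of different groups had correlations of their deviations between -0.06 and 0.13, 2 of 9 over 0.1. Arrays with other numbers had correlations between -0.18 and 0.16, 1 of 18 over 0.1. Of the 9 arrays, 6 correlated best with their own number. The labels state no pairing, so the main fit has no block, but these values do not exclude a pairing. With the replicate block, 1 rose (GREB1L) and 0 fell against both controls, 0 rose and 0 fell against the negative control, and 0 rose against mock.

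With each array left out in turn, the rises numbered 0 to 3 against both controls, 0 to 2 against the negative control and 0 to 1 against mock, and the falls 0 to 0 against both controls and against the negative control. The median change of the 27 genes lay between 0.0891 and 0.20 against both controls, without mimic replicate 1 at the low end, and between 0.0778 and 0.20 against the negative control. Genes with a small difference changed sign in some of these fits, with these ranges on the log2 scale. For mimic minus negative control these were TPD52L1 from -0.0345 to 0.0497. For mimic minus mock these were TPD52L1 from -0.0143 to 0.12, TFF1 from -0.0563 to 0.17 and SYBU from -0.11 to 0.0122. For negative control minus mock these were GREB1 from -0.0420 to 0.0206, MYC from -0.0841 to 0.0297, MYBL1 from -0.13 to 0.0882, OLFM1 from -0.0896 to 0.0394, ELOVL2 from -0.0275 to 0.0854, CXCL12 from -0.10 to 0.0916, ABAT from -0.0614 to 0.0142, HSPB8 from -0.0631 to 0.0141, TPD52L1 from -0.0165 to 0.11, MAPT from -0.0634 to 0.0905, ESR1 from -0.0582 to 0.0208, EGR3 from -0.0134 to 0.0650, KDM4B from -0.00425 to 0.0829, PGR from -0.0149 to 0.11 and RET from -0.22 to 0.00598. For mimic minus both controls these were ANXA9 from -0.0911 to 0.12, TPD52L1 from -0.00607 to 0.0825 and IL17RB from -0.0849 to 0.0522. Quantile normalization turned the sign of TPD52L1 against the negative control (-0.00570), TFF1 against mock (-0.00490), ANXA9 against both controls (-0.0258) and, for negative control minus mock, GREB1 (0.00480), CXCL12 (-0.00937) and MAPT (-0.0140). Centring turned that of IL17RB against both controls (0.00416).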
